A study of Mus musculus with 18 samples.

Results

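A set of 10 genes was followed because their transcripts were low in p53-/- factor-dependent myeloid (FDM) cells growing in IL-3: Thy1, Rgl1, Tmem51, Akr1c18, Aatk, St8sia4, Acadsb, Klhdc2, Tmem203 and Arpc2. They were chosen by their measured difference between p53-/- and WT clones at 0 h, so the values of these genes at 0 h are given as a description with no test. These 10 genes stood among 11195 genes with at least 1 expressed probe. The question was whether the difference between the genotypes at 0 h lasted to 18 h without IL-3.

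FDM cells are mouse myeloid progenitors transformed with HoxB8, which need IL-3 to survive, and both genotypes carried this transformation. The cells came from p53-/- mice or from WT mice and were all grown in DMEM with fetal calf serum and IL-3, with 3 independent clones of each genotype. RNA was taken after 0, 6 and 18 h without IL-3, where 0 h is the culture still in IL-3. This gave 6 groups of 3 arrays (p53-/- at 0, 6 and 18 h, and WT at 0, 6 and 18 h), 18 Illumina MouseWG-6 arrays in all. The age and sex of the mice, and whether any clones shared a mouse, are not given in the sources used here, and each clone is a line that grew out of a transformed culture.

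p53 is a transcription factor that is stabilized under stress and activates genes for cell cycle arrest and apoptosis, and removal of IL-3 is one such stress for myeloid progenitors. The 10 genes belong to no single pathway. Thy1 is a surface glycoprotein held by a lipid anchor, Rgl1 passes signals from Ras to the GTPase Ral, and Aatk is a lemur family kinase first described in mouse myeloid cells undergoing growth arrest and apoptosis. Akr1c18, St8sia4 and Acadsb are enzymes, Klhdc2 selects proteins for degradation, Arpc2 is a structural subunit of the Arp2/3 complex that branches actin filaments, and Tmem51 and Tmem203 are membrane proteins.

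All levels below are normalized log2 intensities, on which an undetected probe read between about 4 and 6. A probe was called expressed on an array at a detection p under 0.01. The array carried 13 probes for the 10 genes. Each gene had 1 expressed probe, and the second probes of Thy1, St8sia4 and Acadsb were detected on 0 of 18 arrays, with levels of 4.53 to 5.63, 4.32 to 5.23 and 4.67 to 5.28. Results rest on 1 probe per gene, so no second probe checked them. In RNA from a whole culture, fewer cells with a transcript and less transcript per cell cannot be told apart.

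The 18 h array of p53-/- clone 3 was unlike the other arrays. Its median intensity was 102.9, against 122.1 to 175.2 on the other 17 arrays, and 27.01% of probes were detected, against 30.69% to 34%. The model gave it a weight of 0.0905, where the other arrays had 0.467 to 4.34. Differences between the genotypes at 18 h are therefore given with and without it for the 10 genes, and with it alone for other genes. p53 itself was not analysed here, and Cdkn1a, the p53 target that encodes p21, stood at 8.78, 9.33 and 10.01 in p53-/- clones at 0 h and at 12.57, 12.55 and 11.59 in WT clones.

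Of 17 myeloid progenitor markers, 12 were detected on all 9 p53-/- arrays and 11 on all 9 WT arrays, with summed linear levels of 45100 to 67100 in p53-/- cells and 57500 to 114000 in WT cells. Of these 17, 0 were called at 0 h, 2 lower and 0 higher at 6 h, and 2 lower and 0 higher at 18 h in p53-/- cells. Over all 21413 expressed probes 906 were called lower and 818 higher at 6 h, and 802 lower and 788 higher at 18 h. Cebpe, a transcription factor of granulocyte maturation, was called lower at both times, with log2 differences, p53-/- minus WT, of -3.72 ± 0.817 (SE) at 6 h and -4.45 ± 0.93 at 18 h (limma adjusted p = 0.00445 and 0.00356). The other calls were the Fc receptor Fcgr3 at 6 h (-1.28 ± 0.258, limma adjusted p = 0.00269) and Cebpa, a transcription factor of early myeloid cells, at 18 h (-1.37 ± 0.261, limma adjusted p = 0.00195). Mpo, which encodes the peroxidase of early granules, differed by 5.62, 3.97 and 3.08 at 0, 6 and 18 h and was not called. Kit, which marks early progenitors, was detected on 1 of 9 p53-/- arrays and 0 of 9 WT arrays. Of 11 annotated T cell markers, Cd3e, Cd247, Cd4, Cd5 and Zap70 were undetected on every array, and the list summed to 3440 to 5150 in p53-/- cells and 4020 to 8350 in WT cells. Of 7 B cell markers Cd79a, Cd22 and Blnk, and of 10 stromal markers Col1a1, Col3a1, Lum and Cdh5, were undetected on every array. Other members of these 3 lists were detected on all 9 arrays of each genotype. They were the T cell marker Cd8b1 (mean 11.72 in p53-/- and 12.06 in WT cells) and the B cell marker Ebf1 (6.8 and 6.37). The stromal markers Pecam1 (11.36 and 12.97) and Acta2 (7.37 and 9.2) were so too. The B cell list summed to 301 to 979 in p53-/- cells and 245 to 300 in WT cells, and the stromal list to 2570 to 4230 in p53-/- cells and 4030 to 14200 in WT cells. Of the 6 measured T cell markers 1 was called higher at 6 h, and 1 lower and 1 higher at 18 h, and of the 6 measured stromal markers 1 was called lower at 6 h and 2 at 18 h, with 0 of the 4 measured B cell markers called at either time. The part of these markers in the results below was not tested.

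At 0 h the 10 genes were not all silent in p53-/- clones. Aatk was detected in 0 of 3 p53-/- clones, Rgl1 and Akr1c18 in 1 of 3, and Thy1 and Tmem51 in 2 of 3. St8sia4, Acadsb, Klhdc2, Tmem203 and Arpc2 were detected in 3 of 3. All 10 were detected in 3 of 3 WT clones. The levels in each clone over time are plotted for every gene.

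**Figure D1:**
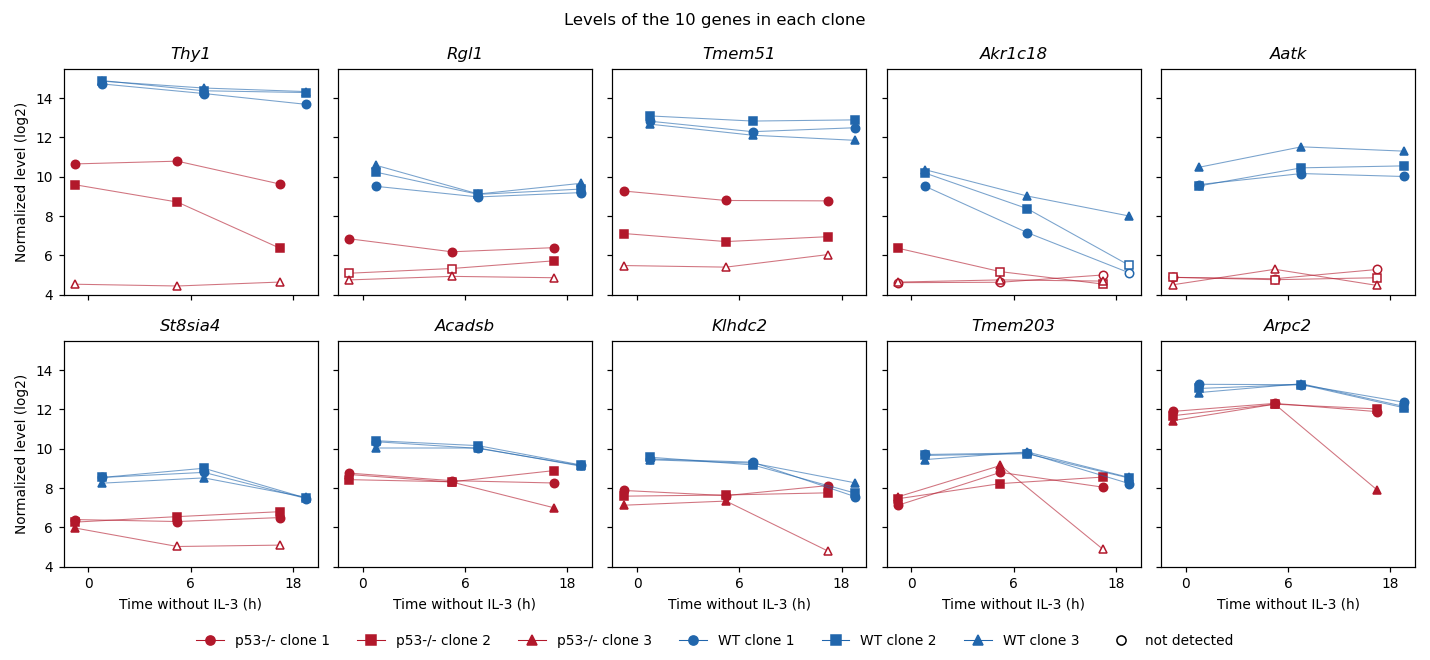
Normalized log2 level (y axis) of the 10 genes at 0, 6 and 18 h without IL-3 (x axis) in 3 p53-/- clones (red) and 3 WT clones (blue), with open symbols where the probe was not detected. Every Aatk symbol of the p53-/- clones is open, while p53-/- clone 3 at 18 h fell away from clones 1 and 2 for Klhdc2, Tmem203 and Arpc2.

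Thy1, Rgl1, Tmem51 and Aatk were lower in p53-/- cells at 0 h and still lower at 6 h and 18 h. Thy1 differed by a fitted -6.7 ± 1.29 (SE) on the log2 scale at 0 h and Tmem51 by -5.78 ± 0.803, each detected in 2 of 3 p53-/- clones. Rgl1, detected in 1 of 3, differed by a fitted -4.67 ± 0.411, and for Aatk, detected in 0 of 3, a bound is given below. In each of the 4 genes all 3 p53-/- clones lay below all 3 WT clones at every time.

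Thy1 is the Thy-1 antigen of mouse thymocytes and of some hematopoietic progenitors. It stood at 10.65, 9.59 and 4.53 in p53-/- clones 1, 2 and 3 at 0 h, against 14.72, 14.89 and 14.86 in WT clones. At 6 h it stood at 10.79, 8.71 and 4.44 in p53-/- clones and at 14.23, 14.37 and 14.51 in WT clones. After 18 h it stood at 9.63, 6.37 and 4.64 in p53-/- clones and at 13.68, 14.28 and 14.33 in WT clones. Thy1 was undetected in clone 3 alone, and clones 1 and 2 expressed it at every time, below every WT clone. The difference was -5.26 ± 1.04 (SE) at 6 h (limma adjusted p = 0.00224) and -6.37 ± 1.18 at 18 h (limma adjusted p = 0.00164). The call at 6 h was lost without WT array 1 or 2 at 6 h (limma adjusted p = 0.00765 and 0.016). It was also lost with no filter on detection, no array weights, only the arrays compared, or no weights and no p53-/- array 3 at 18 h. There the differences were -6.39 to -5.23, with limma adjusted p of 0.0116 to 0.0247. The call at 18 h was lost without p53-/- array 1 or 2 or WT array 1 or 2, with limma adjusted p of 0.0126 to 0.227 and differences of -8.63 to -6.26. It was lost too with no filter (-6.46, limma adjusted p = 0.0215), and with no weights and no p53-/- array 3 at 18 h (-6.1, limma adjusted p = 0.0347).

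Tmem51 encodes a membrane protein of little known function. Its level was 9.27, 7.11 and 5.48 in p53-/- clones at 0 h, against 12.82, 13.09 and 12.67 in WT clones. It was 8.79, 6.7 and 5.4 in p53-/- clones at 6 h, against 12.29, 12.83 and 12.11 in WT clones. It was 8.77, 6.95 and 6.04 in p53-/- clones at 18 h, against 12.49, 12.89 and 11.85 in WT clones. Clone 1 was the highest p53-/- clone and clone 3 the lowest at each time, the same order as for Thy1. The difference was -5.05 ± 0.643 (SE) at 6 h (limma adjusted p = 0.000117) and -4.91 ± 0.732 at 18 h (limma adjusted p = 0.000387), with the probe detected in 2 of 3 p53-/- clones at both times.

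Rgl1 encodes an exchange factor that loads the GTPase Ral. It read 6.84, 5.09 and 4.75 in p53-/- clones at 0 h, against 9.51, 10.23 and 10.58 in WT clones. It read 6.18, 5.33 and 4.93 in p53-/- clones at 6 h, against 8.97, 9.1 and 9.12 in WT clones. It read 6.39, 5.72 and 4.86 in p53-/- clones at 18 h, against 9.19, 9.37 and 9.66 in WT clones. Clone 1 was again the highest p53-/- clone, and clone 3 was undetected at all 3 times. The difference was -3.42 ± 0.329 (SE) at 6 h (limma adjusted p = 1.4e-05) and -3.37 ± 0.374 at 18 h (limma adjusted p = 5.03e-05). The probe was detected in 1 of 3 p53-/- clones at 6 h and in 2 of 3 at 18 h, so these fitted values rest partly on undetected levels.

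Aatk was the one gene of the 10 with no detected value in any p53-/- sample. Its probe read 4.88, 4.88 and 4.5 in p53-/- clones at 0 h, against 9.6, 9.53 and 10.48 in WT clones. At 6 h it read 4.81, 4.76 and 5.29 in p53-/- clones, against 10.16, 10.45 and 11.52 in WT clones. At 18 h it read 5.28, 4.86 and 4.47 in p53-/- clones, against 10.01, 10.55 and 11.3 in WT clones. The p53-/- values were not above background, so only bounds can be given. The level was at least 18.9-fold lower in p53-/- clones at 0 h, at least 34.3-fold lower at 6 h (limma adjusted p = 7.65e-08) and at least 28.3-fold lower at 18 h (limma adjusted p = 3.69e-07). A bound sets the mean of the bright group against the higher, on each array, of the lowest signal that was detected and the signal of the probe itself. Bounds depend on the background correction. Over 12 other settings the fitted difference of Aatk was -5.83 to -2.39 at 6 h and -5.75 to -2.28 at 18 h, called in each. Within WT clones the level was 0.84 higher at 6 h and 0.75 higher at 18 h than at 0 h on the log2 scale, as unweighted means with no test.

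The p53-/- clones differed among themselves most in Thy1. The SD over p53-/- clones, averaged over the 3 times, was 3.01 for Thy1, 1.67 for Tmem51 and 0.84 for Rgl1, against 0.2, 0.37 and 0.29 over WT clones. For Aatk, undetected in p53-/- clones, the SD was 0.31 in p53-/- and 0.63 in WT clones. Over the 18 arrays the genes most like Thy1 among 11194 others were Tmem51 (Pearson r = 0.97), D430041D05Rik (0.967) and Man1c1 (0.962). Those most like Rgl1 were Tmem51 (0.976), Nhsl1 (0.947) and Lgals3bp (0.946), and those most like Aatk were Nhsl1 (0.983), Aoah (0.98) and Sdc2 (0.976). The 18 arrays share 6 clones and the genotype contrast that chose the genes, so these likenesses are descriptions.

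Promoter windows of 250 bases before to 50 bases after a start (RefSeq, GRCm38.p6) were held for 9 of the 10 genes, 13 starts in all, with Thy1 unmatched. A GC box (GGGCGG, either strand, overlapping matches counted) stood at 9 of the 13 starts, in 8 of the 9 genes, and in 35.7% of all 32851 windows of that length. That share is of windows, so it stands beside the count of starts and not that of genes. Starts 1 and 3 of Aatk (chr11:120047103-120047402 and chr11:120047096-120047395) overlap and share a GC box, and both are counted among the starts. An ETS motif (CCGGAAG, either strand) stood at 1 of the 13 starts, that of Klhdc2, and in 8.86% of all windows. CCAAT stood at 4 of the 13 starts (37.4% of all windows), TATAAA at 0 (13.6%) and a p53 half-site, searched by its consensus on both strands, at 0 (8.36%). A window without a match says only that these letters are not in it. The ratio of observed to expected CpG was above the median of all windows, 0.384, at 10 of the 13 starts. The windows of Tmem51 (chr4:142084255-142084554, minus strand, 69.7% G and C) and of the Aatk start with the most GC boxes (chr11:120047096-120047395, minus strand, 70.3% G and C) are shown for the genes whose difference lasted, with GC boxes in capitals.
Tmem51: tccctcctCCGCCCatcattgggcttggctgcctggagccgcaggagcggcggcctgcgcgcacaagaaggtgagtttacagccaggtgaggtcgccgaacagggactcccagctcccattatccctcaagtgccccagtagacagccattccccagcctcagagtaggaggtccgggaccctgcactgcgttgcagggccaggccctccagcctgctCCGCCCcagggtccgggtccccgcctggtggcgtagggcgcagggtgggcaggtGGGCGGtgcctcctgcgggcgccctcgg
Aatk: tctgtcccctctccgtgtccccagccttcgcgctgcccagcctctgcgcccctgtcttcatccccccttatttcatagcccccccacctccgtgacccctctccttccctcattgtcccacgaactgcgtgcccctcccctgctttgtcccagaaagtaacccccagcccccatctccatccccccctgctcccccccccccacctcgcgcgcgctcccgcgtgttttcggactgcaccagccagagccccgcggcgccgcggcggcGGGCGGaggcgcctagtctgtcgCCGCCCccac

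Akr1c18 was at or near background in p53-/- cells, and its level in WT cells was lower at 18 h than at 6 h. It encodes a hydroxysteroid dehydrogenase that inactivates progesterone. It read 4.61, 6.36 and 4.64 in p53-/- clones at 0 h, against 9.52, 10.19 and 10.36 in WT clones. It read 4.63, 5.17 and 4.75 in p53-/- clones at 6 h, against 7.16, 8.38 and 9.02 in WT clones. It read 5, 4.54 and 4.69 in p53-/- clones at 18 h, against 5.11, 5.49 and 8 in WT clones. At 18 h the probe was detected in WT clone 3 alone, and the p53-/- clones lay below the WT clones by a gap between undetected values. The fitted difference was -4.92 ± 0.62 (SE) at 0 h, with 1 of 3 p53-/- clones detected. At 6 h the level in p53-/- cells was lower by at least 5.96-fold with this background correction, with a fitted -3.27 ± 0.496 (limma adjusted p = 0.00039). With the authors' processed values the difference at 6 h was -0.79 and was not called (limma adjusted p = 0.005, with B at or below 0). At 18 h the fitted difference was -0.99 ± 0.565 (95% interval -2.19 to 0.21) and was not called (limma adjusted p = 0.245).

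St8sia4, Acadsb, Klhdc2, Tmem203 and Arpc2 were lower in p53-/- cells at 0 h, with log2 differences of -2.29 to -1.41, and were expressed in every p53-/- clone. By 18 h their levels in WT cells had fallen toward those of p53-/- cells. None of the 5 was called at 18 h.

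St8sia4 encodes a sialyltransferase that builds polysialic acid. Its level was 6.4, 6.27 and 5.97 in p53-/- clones at 0 h, against 8.54, 8.54 and 8.25 in WT clones. At 6 h it was 6.3, 6.55 and 5.03 in p53-/- clones, against 8.8, 9.01 and 8.52 in WT clones. By 18 h it was 6.5, 6.8 and 5.1 in p53-/- clones, against 7.47, 7.49 and 7.53 in WT clones. Clone 3 was undetected at 6 h and 18 h, and the genotypes did not overlap at any time. The difference was -2.57 ± 0.227 (SE) at 6 h (limma adjusted p = 6.23e-06). At 18 h it was -0.88 ± 0.258, with limma adjusted p = 0.0239 but a B statistic, the log odds that a probe differs, of -2.11, below the 0 that a call required.

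Acadsb encodes an acyl-CoA dehydrogenase of branched-chain amino acid breakdown. It stood at 8.76, 8.43 and 8.69 in p53-/- clones at 0 h, against 10.36, 10.41 and 10.04 in WT clones. At 6 h its level was 8.38, 8.32 and 8.31 in p53-/- clones, against 10.02, 10.16 and 10.04 in WT clones. At 18 h its level was 8.26, 8.89 and 7 in p53-/- clones, against 9.15, 9.18 and 9.12 in WT clones. The gap at 6 h was wide against the spread of either genotype, and at 18 h clone 2 was the p53-/- clone nearest to the WT clones. The difference was -1.74 ± 0.169 (SE) at 6 h (limma adjusted p = 1.51e-05) and -0.62 ± 0.192 at 18 h (limma adjusted p = 0.0322, B = -2.53, not called).

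Klhdc2 encodes a kelch domain receptor that brings proteins to a cullin ubiquitin ligase. In p53-/- clones it stood at 7.88, 7.59 and 7.13 at 0 h, against 9.48, 9.57 and 9.44 in WT clones. In p53-/- clones it stood at 7.62, 7.65 and 7.34 at 6 h, against 9.32, 9.18 and 9.27 in WT clones. In p53-/- clones it stood at 8.13, 7.76 and 4.79 at 18 h, against 7.57, 7.75 and 8.27 in WT clones. At 18 h clones 1 and 2 of p53-/- lay within the WT range and clone 3, on the array that stood apart, was undetected. The difference was -1.64 ± 0.224 (SE) at 6 h (limma adjusted p = 0.000184). The call at 6 h was lost with no array weights (-1.72, limma adjusted p = 0.0895, with B at or below 0). At 18 h the difference was 0.05 ± 0.255 (95% interval -0.49 to 0.59, limma adjusted p = 0.919), and its sign turned under several settings given in the closing section.

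Tmem203 encodes a membrane protein of the endoplasmic reticulum linked to calcium handling. Values in p53-/- clones were 7.13, 7.46 and 7.56 at 0 h, against 9.71, 9.66 and 9.45 in WT clones. Values in p53-/- clones were 8.8, 8.23 and 9.15 at 6 h, against 9.79, 9.75 and 9.84 in WT clones. Values in p53-/- clones were 8.05, 8.56 and 4.9 at 18 h, against 8.23, 8.51 and 8.54 in WT clones. All 3 p53-/- clones were higher at 6 h than at 0 h, by 1.34 on average with no test, and the WT clones by 0.19. The difference was -1.2 ± 0.251 (SE) at 6 h (limma adjusted p = 0.00332) and -0.24 ± 0.285 at 18 h (95% interval -0.84 to 0.37, limma adjusted p = 0.613). The call at 6 h was lost with clone as a random block (-1.16, limma adjusted p = 0.00659, with B at or below 0), and without any 1 of the WT arrays or p53-/- arrays 1 and 2 at 6 h (-1.23 to -0.81, limma adjusted p of 0.0101 to 0.124). It was lost too with median scaling, no filter on detection, no array weights or only the arrays compared (-1.2 to -1.07, limma adjusted p of 0.00884 to 0.347).

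Arpc2 encodes a subunit of the core of the Arp2/3 complex. Its probe read 11.9, 11.68 and 11.43 in p53-/- clones at 0 h, against 13.28, 13.07 and 12.86 in WT clones. Its probe read 12.31, 12.27 and 12.27 in p53-/- clones at 6 h, against 13.26, 13.27 and 13.31 in WT clones. Its probe read 11.89, 12.03 and 7.91 in p53-/- clones at 18 h, against 12.37, 12.09 and 12.16 in WT clones. The genotypes were apart at every time, by a narrow gap at 18 h outside clone 3. The difference was -0.99 ± 0.241 (SE) at 6 h, with limma adjusted p = 0.00808 and B = -0.71, and was called without the p53-/- array that stood apart (limma adjusted p = 0.000172). At 18 h it was -0.34 ± 0.274 (95% interval -0.92 to 0.24, limma adjusted p = 0.424).

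The promoter windows of Acadsb (chr7:131410351-131410650, plus strand, 66% G and C) and Klhdc2 (chr12:69296431-69296730, plus strand, 61.3% G and C) are shown for the genes whose difference narrowed. Capitals mark GC boxes in Acadsb and ETS motifs in Klhdc2, which had 0 GC boxes.
Acadsb: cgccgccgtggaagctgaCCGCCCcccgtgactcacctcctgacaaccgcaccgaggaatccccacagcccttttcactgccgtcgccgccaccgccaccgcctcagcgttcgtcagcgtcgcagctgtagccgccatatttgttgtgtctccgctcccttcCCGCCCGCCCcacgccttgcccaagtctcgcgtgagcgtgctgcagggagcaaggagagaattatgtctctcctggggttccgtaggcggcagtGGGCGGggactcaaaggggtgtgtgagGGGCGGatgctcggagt
Klhdc2: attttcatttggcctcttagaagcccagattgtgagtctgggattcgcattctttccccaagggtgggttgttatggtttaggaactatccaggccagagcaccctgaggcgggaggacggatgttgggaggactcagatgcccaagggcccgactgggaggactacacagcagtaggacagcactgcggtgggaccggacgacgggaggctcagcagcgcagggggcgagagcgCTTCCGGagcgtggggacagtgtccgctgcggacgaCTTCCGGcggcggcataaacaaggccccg

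At 6 h, 9 of the 10 genes were called lower in p53-/- cells, all except Arpc2, and 0 were called higher. Over all 21413 expressed probes 4.23% were called lower at 6 h, and of the 504 probes called lower at 0 h 67.9% were called lower again. The median difference of the 10 genes was -2.92, against 0.02 over all probes. All p53-/- clones lay below all WT clones in 10 of 10 genes, where 17.6% of all probes did so, and the share over the 504 probes was not counted. The arrays at 6 h were not used in the choice, but they came from the same clones, and the spread was estimated with the 0 h arrays included.

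At 18 h, 4 of the 10 genes were called lower, Thy1, Rgl1, Tmem51 and Aatk, and 0 were called higher. Over all probes 3.75% were called lower at 18 h, and of the 504 probes called lower at 0 h 22.6% were. The share over all probes depended on the settings, with 2421 called lower with median scaling, against 802, and 6 and 72 without p53-/- array 1 and array 2 at 18 h. The median difference of those 504 probes was -1.63 at 0 h, -1.25 at 6 h and -0.42 at 18 h, and that of the 10 genes at 18 h was -0.94. All p53-/- clones lay below all WT clones in 8 of 10 genes, where 13% of all probes did so. In Akr1c18 the nearest values, 5 and 5.11, were both undetected, and in Arpc2 they were 12.03 and 12.09. The share over the 504 probes was not counted. Without p53-/- array 1 or array 2 at 18 h 1 gene was called, Aatk, and without array 3 the count was 4.

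**Figure D2:**
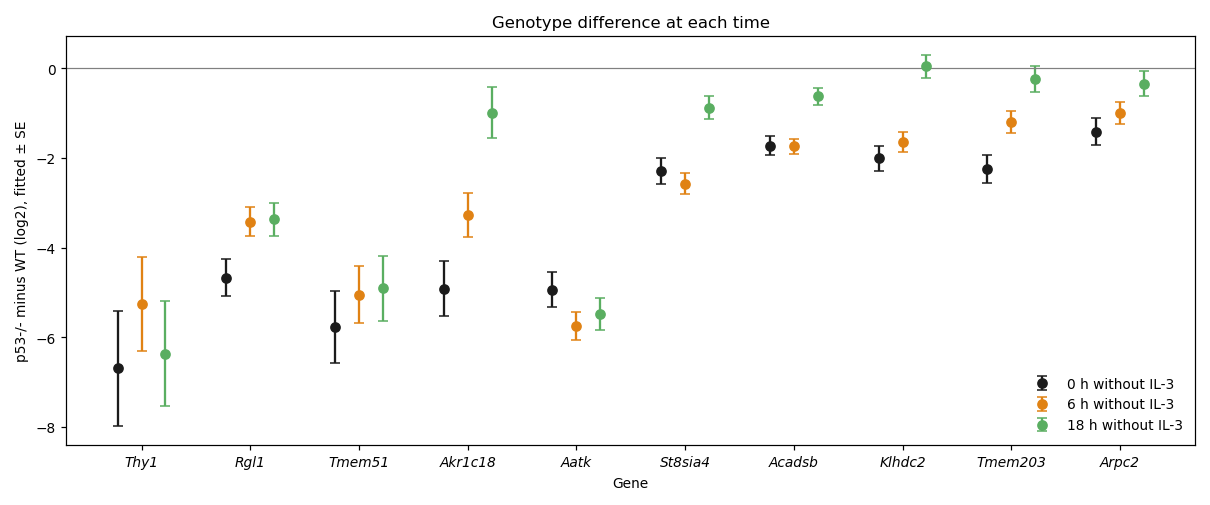
Fitted log2 difference, p53-/- minus WT (y axis), of each of the 10 genes (x axis) at 0 h (black), 6 h (orange) and 18 h (green), with bars of 1 SE, 3 arrays per group. Aatk in p53-/- cells was at background at every time, so its points are not sizes of a difference. At 18 h Thy1, Rgl1, Tmem51 and Aatk lay between -6.37 and -3.37, and the other 6 genes between -0.99 and 0.05.

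The array that stood apart set much of the p53-/- mean at 18 h for some genes when arrays were weighted equally. Its level minus the mean of clones 1 and 2 was -4.05 for Arpc2, -3.4 for Tmem203, -3.36 for Thy1 and -3.16 for Klhdc2. It was -0.08 for Akr1c18 and -0.59 for Aatk, both undetected. Over all probes the median of this difference was 0.1, and 16.5% of them were lower by more than 1, against a median of -1.08 and 52.4% over the 504 probes called lower at 0 h. Of the 1060 probes called lower at 18 h than at 6 h in WT cells, 41% were lower by more than 1 on this array. Of the 195 probes called lower in both comparisons, 63.1% were. With equal weights the difference between the genotypes at 18 h was -1.6 for Arpc2, -1.26 for Tmem203 and -0.97 for Klhdc2, and without this array -0.25, -0.12 and 0.08. For Thy1, Tmem51, Rgl1 and Aatk it was -7.22, -5.15, -3.75 and -5.75, and without the array -6.1, -4.55, -3.35 and -5.55, where Aatk was at background in p53-/- cells. For St8sia4, Acadsb and Akr1c18 it was -1.37, -1.1 and -1.46, and without the array -0.85, -0.58 and -1.43, where Akr1c18 was undetected in p53-/- cells. Clone 3 was also the lowest p53-/- clone for Thy1, Tmem51 and Rgl1 at 0 h and 6 h, when its arrays did not stand apart.

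**Figure D3:**
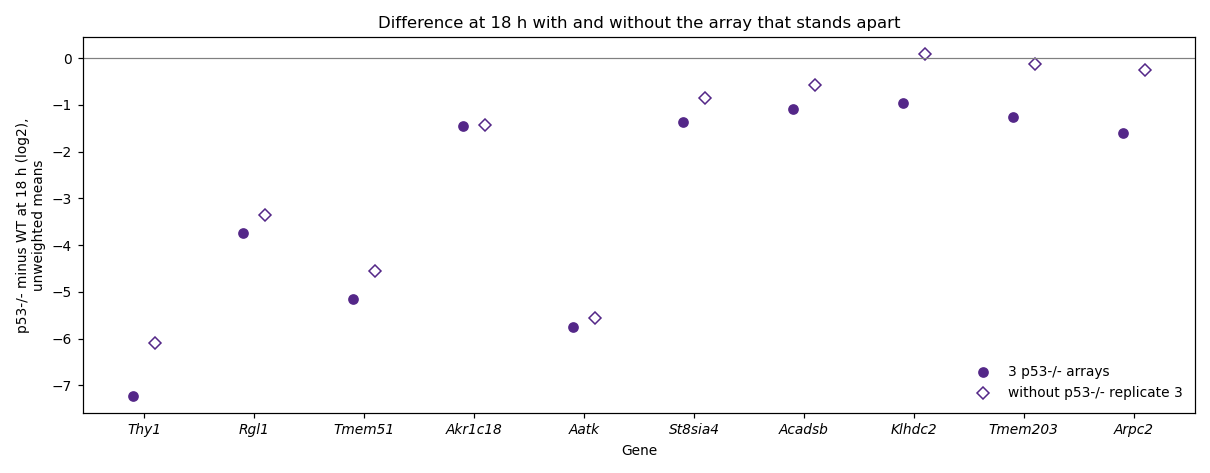
Difference of unweighted mean log2 levels at 18 h, p53-/- minus WT (y axis), of each gene (x axis) with 3 p53-/- arrays (filled) and without the third (open). Without it Klhdc2, Tmem203 and Arpc2 lay between -0.25 and 0.08, and the 4 genes whose difference lasted between -6.1 and -3.35.

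The narrowing was measured within each genotype between 6 h and 18 h, with differences taken from arrays that had not chosen the genes. Its SE and p-values were not separate from the choice, because spread and array weights were estimated from all arrays, those at 0 h included. In p53-/- cells 0 of the 10 genes were called in either direction by limma, and 0 had an unadjusted p under 0.05. Aatk and Akr1c18 were undetected in p53-/- cells at both times, so a fall in them could not show. Over all probes 1.02% were called lower and 1.47% in either direction. Thy1 differed by -1.32 ± 1.21 (SE) and the others by -0.46 to 0.35. With clone as a fixed block Thy1 was called lower at 18 h than at 6 h in p53-/- cells (-1.53, limma adjusted p = 0.00598).

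In WT cells 6 of the 10 genes were called lower at 18 h than at 6 h and 0 higher. They were Akr1c18 (-2.42 ± 0.479, SE), Klhdc2 (-1.47 ± 0.216), St8sia4 (-1.34 ± 0.219), Tmem203 (-1.34 ± 0.242), Arpc2 (-1.11 ± 0.232) and Acadsb (-0.92 ± 0.163), with limma adjusted p of 0.000221 to 0.00321. Over all probes 4.95% were called lower, and of the 504 probes called lower at 0 h 38.7% were. The 6 genes are those not called between the genotypes at 18 h, and both comparisons use the same WT arrays at 18 h. Thy1 (-0.22 ± 0.999, SE), Rgl1 (0.3 ± 0.317), Tmem51 (0.15 ± 0.621) and Aatk (-0.09 ± 0.298) were not called in WT cells. The spread was pooled over the groups, and p53-/- clones differed widely in Thy1 and Tmem51. With SEs that wide, a fall in WT cells like that of Acadsb or Klhdc2 could have gone uncalled in Thy1 and Tmem51. Their lack of a call therefore does not show that they differed from the 6 genes in WT cells. Without WT array 1 or array 2 at 18 h the count called lower was 0, with differences of -1.6 to -0.94 in the 6 genes, and without WT array 2 at 6 h it was 2. Akr1c18 moved most, to -1.42 without WT array 1 at 18 h (limma adjusted p = 0.185), and Arpc2 lost its call in 7 of the 18 fits that left out 1 array.

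**Figure D4:**
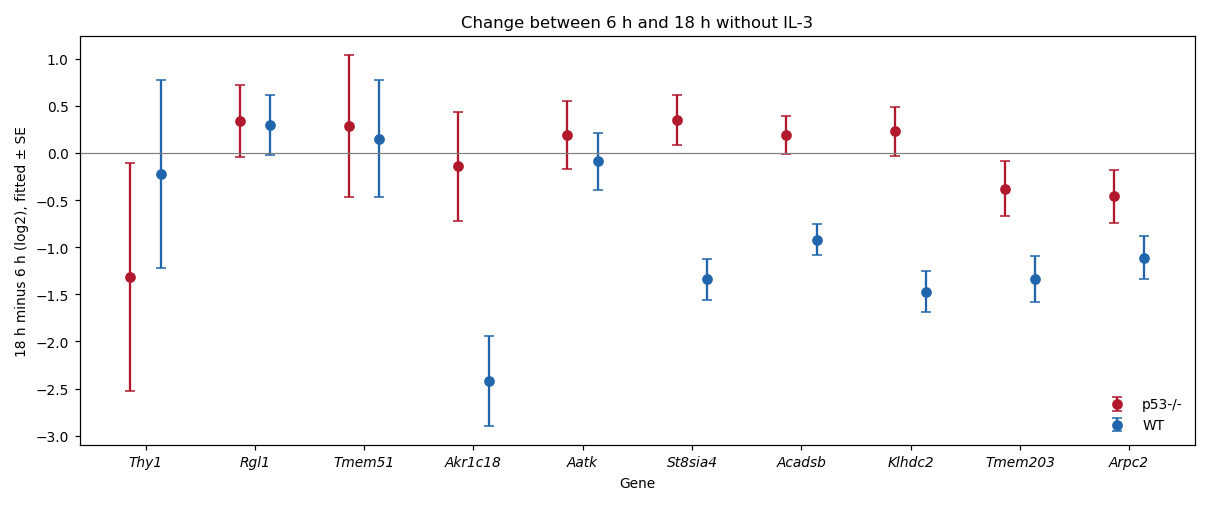
Fitted log2 change, 18 h minus 6 h (y axis), of each gene (x axis) in p53-/- cells (red) and WT cells (blue), with bars of 1 SE, 3 arrays per group. WT values of the 6 genes from Akr1c18 to Arpc2 other than Aatk lay between -2.42 and -0.92, and their p53-/- values between -0.46 and 0.35. In p53-/- cells Akr1c18 was undetected at both times.

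The difference between those changes was tested directly. It was called for 3 of the 10 genes, all higher in p53-/- than in WT cells. They were Klhdc2 (1.69 ± 0.34, SE, limma adjusted p = 0.0241), St8sia4 (1.69 ± 0.343, limma adjusted p = 0.0253) and Acadsb (1.12 ± 0.256, limma adjusted p = 0.0404). In a fit of only the 6 h and 18 h arrays they were not called (1.68, 1.68 and 1.12, limma adjusted p = 0.0678, 0.0703 and 0.0803). St8sia4 was near background in p53-/- cells (mean 5.96 at 6 h), so a fall as large as that in WT cells could not fully show. Over all probes 0.873% were called higher in this comparison, and of the 504 probes called lower at 0 h 15.3% were. Akr1c18 differed by 2.28 ± 0.752 and was not called (limma adjusted p = 0.118). Its probe was undetected in p53-/- cells at 6 h and 18 h (means 4.85 and 4.74), so a fall there could not show. With clone as a fixed block Akr1c18 was called (2.27, limma adjusted p = 0.0146) and Acadsb was not (1.05, limma adjusted p = 0.0221, with B at or below 0). For Tmem203 it was 0.96 ± 0.38 and for Arpc2 0.65 ± 0.365, neither called (limma adjusted p = 0.189 and 0.361). Thy1, Rgl1, Tmem51 and Aatk differed by -1.11 to 0.27, with 95% intervals of -4.43 to 2.22, -1.02 to 1.1, -1.93 to 2.21 and -0.72 to 1.27. Acadsb lost its call in 16 of the 18 fits that left out 1 array. The count was 0 without any 1 of p53-/- arrays 1 and 2 and WT arrays 1 and 2 at 18 h, and 1 without any 1 of p53-/- arrays 1 and 2 and WT arrays 1 and 2 at 6 h.

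Relatives of the 10 genes by family or complex were mostly not called, though some that were not called had an adjusted p under 0.1 with B below 0. Of 57 annotated relatives 43 were measured, and 1 was called lower and 0 higher in p53-/- cells at 0 h, where 2.35% of all probes were called lower, 1 lower and 1 higher at 6 h, and 3 lower and 2 higher at 18 h. Their median difference was 0.17 at 0 h, -0.06 at 6 h and -0.08 at 18 h. Over all 21413 expressed probes 4.23% were called lower at 6 h (906, with 818 higher) and 3.75% at 18 h (802, with 788 higher).

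In the Arp2/3 complex, Arpc2 and Arpc5l, the paralog of Arpc5, were lower in p53-/- cells at 0 h while the other measured subunits were not called. Arpc5l read 6.2, 6.26 and 6.08 in p53-/- clones at 0 h, against 8.12, 7.56 and 6.98 in WT clones, a difference of -1.37 ± 0.305 (SE, limma adjusted p = 0.00955). Like Arpc2 it was close between the genotypes at 18 h, at 6.44, 6.71 and 4.41 in p53-/- clones and 6.36, 6.37 and 6.39 in WT clones (0.14 ± 0.278, limma adjusted p = 0.771). At 0 h Arpc1a, Arpc1b, Arpc4 and Arpc5 differed by 0.51, 0.35, 0.49 and 0.17 and were not called.

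Among Ral exchange factors, Rgl2 was not called at 0 h (-0.39 ± 0.229, SE) and was lower in p53-/- cells at 18 h (-1.01 ± 0.209, limma adjusted p = 0.00336). Rgl2 read 8.07, 8.58 and 9.15 in p53-/- clones at 18 h, against 9.23, 9.52 and 9.07 in WT clones. Its clone 3 value, on the array that stood apart, lay within the WT range. Lmtk2, the measured relative of Aatk, was expressed in both genotypes. It stood at 8.59, 9.34 and 9.94 in p53-/- clones at 18 h, against 10.53, 10.95 and 11.06 in WT clones (-1.83 ± 0.247, SE, limma adjusted p = 0.000197). At 0 h it differed by -0.76 ± 0.271 and was not called. Of the acyl-CoA dehydrogenases related to Acadsb, Acad12 was lower in p53-/- cells at 6 h (-0.9 ± 0.161, limma adjusted p = 0.00126) and 18 h (-0.89 ± 0.183, limma adjusted p = 0.00335), and Acadl was higher at 18 h (0.86 ± 0.164, limma adjusted p = 0.00202). Gpaa1 and Pigk, which attach lipid anchors to proteins such as Thy1, were higher in p53-/- cells at 1 time each, Gpaa1 at 6 h (0.75 ± 0.168, limma adjusted p = 0.00475) and Pigk at 18 h (0.96 ± 0.213, limma adjusted p = 0.00502). Gpaa1 differed by -0.34 ± 0.191 at 18 h and was not called. Fyn, listed as a partner of Thy1, differed by -1.34 ± 0.392, -1.21 ± 0.314 and -1.38 ± 0.357 at 0, 6 and 18 h. It was not called, with B below 0 (limma adjusted p = 0.0349, 0.0118 and 0.0127). Ncam1, the main carrier of polysialic acid, differed by -1.63 ± 1.33 at 0 h and -3.69 ± 1.22 at 18 h and was not called (limma adjusted p = 0.476 and 0.0425, B = -5.73 and -2.91).

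Neighbors on the chromosome were taken as the 3 measured genes on each side, 60 in all, and 3 were called lower in p53-/- cells and 0 higher at 0 h, against 2.35% called lower of all probes. Ppip5k2, a kinase of inositol pyrophosphates beside St8sia4, read 5.63, 4.67 and 5.94 in p53-/- clones at 0 h, against 7.87, 7.62 and 7.26 in WT clones. At 6 h it was lower in p53-/- cells (-1.25 ± 0.27, SE, limma adjusted p = 0.00395), and at 18 h it was undetected in 3 of 3 WT clones, at 4.88, 5.1 and 5.13. Its level in WT cells was lower at 18 h than at 6 h (-2.17 ± 0.26, limma adjusted p = 3.87e-05), the direction of the change in St8sia4. Akr1e1, an aldo-keto reductase beside Akr1c18, read 5.18, 5.13 and 5.21 in p53-/- clones at 0 h, against 7.25, 6.99 and 6.14 in WT clones. It was lower at 6 h (-1.53 ± 0.274, limma adjusted p = 0.00123), and in WT cells lower at 18 h than at 6 h (-2.08 ± 0.264, limma adjusted p = 6.47e-05). Pstk, beside Acadsb, was the third neighbor lower at 0 h (-1.51 ± 0.301) and was detected on 2 of 18 arrays.

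Akr1c12, both neighbor and close relative of Akr1c18, read 8.54, 9.23 and 8.6 in p53-/- clones at 0 h, against 10.38, 13.06 and 13.3 in WT clones. It differed by -3.95 ± 0.948 (SE) at 0 h (limma adjusted p = 0.0141, B = -0.46), -2.25 ± 0.76 at 6 h (limma adjusted p = 0.0446, B = -3.07) and -1.85 ± 0.865 at 18 h (limma adjusted p = 0.149). Akr1c12 was not called at any time and was detected on 18 of 18 arrays, where Akr1c18 was detected on 1 of 9 p53-/- arrays. The Akr1c genes are similar in sequence, and whether their probes read one another was not tested. Of the 60 neighbors 2 were lower and 1 higher at 6 h, and 2 lower and 4 higher at 18 h. Over all 21413 expressed probes 4.23% were called lower at 6 h (906, with 818 higher) and 3.75% at 18 h (802, with 788 higher). Beside Arpc2 the chemokine receptor Cxcr2 was higher in p53-/- cells at 6 h (2.46 ± 0.425, SE, limma adjusted p = 0.000973), opposite to Arpc2.

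**Figure D5:**
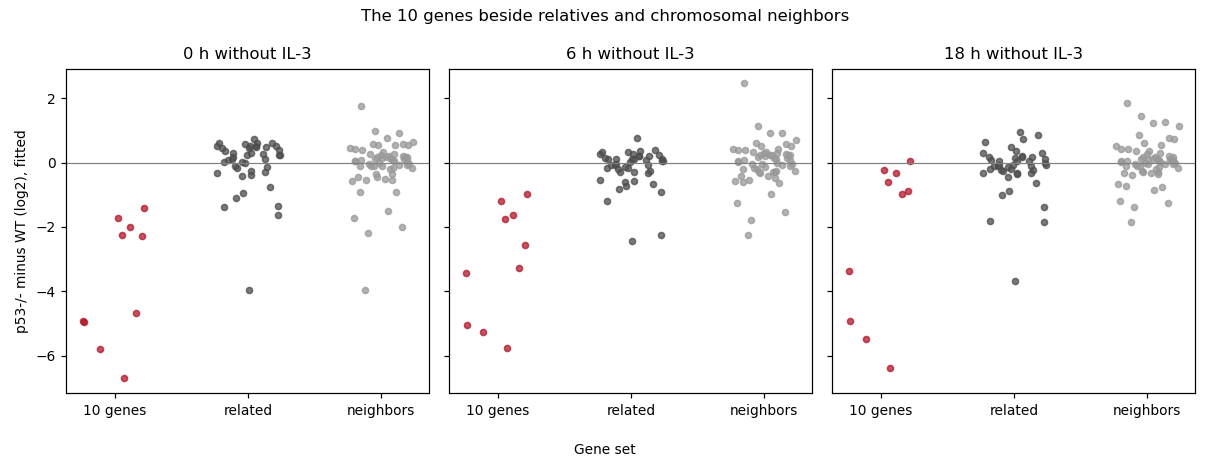
Fitted log2 difference, p53-/- minus WT (y axis), of the 10 genes (red), 43 related genes (dark gray) and 60 neighbors on the chromosome (light gray) at 0, 6 and 18 h without IL-3, each point 1 gene and sideways position without meaning. Related genes had medians of 0.17, -0.06 and -0.08 at the 3 times, and the 10 genes medians of -2.92 at 6 h and -0.94 at 18 h.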

How the data were processed

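RNA from p53-/- and WT FDM cells at 0, 6 and 18 h without IL-3 was measured on 18 arrays of 46632 probes. Probe intensities were deposited without normalization between arrays. The deposited detection column was found to hold 1 minus the p-value, and the p was recovered from it. The authors also deposited log2 values processed with lumi, used as an alternative only. The version of lumi is not given in the sources used here. The labels give groups and replicate numbers, and 0 columns lacked a sample. The study's methods leave out 1 array they do not name, and all 18 were used.

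Background was estimated from the detection p by neqc of limma 3.58.1 under R 4.3.3, with an offset of 16, followed by quantile normalization and log2. This compresses differences near background. A probe was kept (21413 were) where any array detected it at p under 0.01. A linear model of 6 group means was fitted to all arrays with arrayWeights, lmFit and eBayes. P-values were two-sided, with Benjamini-Hochberg adjustment across every kept probe, and a probe was called at an adjusted p of 0.1 or lower with B above 0, as in the study's methods. Exact permutation of 3 against 3 cannot go below p = 0.1, so the model was used. P-values measure the spread between arrays within the 6 groups, pooled over groups, with no term for clone. Arrays of the same clone at different times were thus treated as independent, though they correlated (values below). The comparisons of 18 h with 6 h did not use this pairing, and fits with clone as a block are given as alternatives.

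Probe names came from the array annotation (29976 probes with 1 symbol, 10 with several, 16646 with none), and the probe with the highest mean level stood for a gene. The text names all 10 members, relatives that were called (up to 4 a list, by smallest p) or nearest, called neighbors where described, and the 3 genes most alike by Pearson r over the arrays. The members and lists were chosen with earlier results of these data known, and Akr1c12, Ncam1, Fyn, Cdkn1a and Cebpe were named after their values were seen. Deviations from the group mean correlated between arrays of the same number and genotype (r = 0.276 to 0.756, 18 pairs), so a number marks a clone, and not between genotypes (-0.0417 to 0.0336, 9 pairs). Slides were not used here as a block. The number of arrays limits precision. The model was tested on simulated data. Alternatives changed background correction, scaling, filter, weights, thresholds, probes, blocks and the arrays fitted. Python 3.11.15 and matplotlib 3.10.9 drew the figures.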

Additional observations from a re-analysis of the deposited data

Results flagged for a closer look

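The changes of 3 genes between 6 h and 18 h differed between p53-/- and WT cells by a test of the difference itself. The difference (p53-/- change minus WT change, log2) was 1.69 ± 0.34 (SE) for Klhdc2, 1.69 ± 0.343 for St8sia4 and 1.12 ± 0.256 for Acadsb, with limma adjusted p of 0.0241, 0.0253 and 0.0404. In each gene the level in WT cells fell between 6 h and 18 h, and that in p53-/- cells was not called. St8sia4 read 6.3, 6.55 and 5.03 in p53-/- clones at 6 h, near the 4 to 6 of undetected probes. A fall as large as that in WT cells could not fully show there. On the 18 h array of p53-/- clone 3, which stood apart, the level minus the mean of the other p53-/- clones was -3.16 for Klhdc2, -1.55 for St8sia4 and -1.57 for Acadsb. Without it the differences were 1.81, 1.73 and 1.15 and were still called. Groups of 3 arrays are too small for a test of single outlying arrays.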

How the results depend on the processing

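The count of genes called lower in p53-/- cells was 9 at 6 h, and 7 to 10 with 1 array left out and 6 to 10 under the other alternatives. At 18 h it was 4, with 3 to 6 under the other alternatives and 1 to 4 with 1 array left out (1 without the first or the second p53-/- array at 18 h). The calls within WT cells and the difference between genotypes depended more on the settings. The count called lower at 18 h than at 6 h in WT cells was 6, but 3 with no filter on detection, 0 with no array weights and 0 to 6 with 1 array left out. The difference between the genotypes in that change was called for 3 genes, but for 0 with no filter, 0 with no array weights, 0 with only the arrays compared, 0 to 3 with 1 array left out, and 1 with equal weights and no 18 h array of p53-/- clone 3, a setting chosen after seeing the data. For these settings the cause was not tested. In p53-/- cells the count between 6 h and 18 h was 0, and 1 (Thy1) with clone as a fixed replicate block. With clone as a random replicate block (correlation 0.246) the counts were 8 at 6 h and 4 at 18 h, with Tmem203 lost at 6 h, and with the replicate number as a block 8 and 5, with Tmem203 lost at 6 h and St8sia4 added at 18 h (-0.93, limma adjusted p = 0.00325). Beside these and those named in the report, the blocks changed no call. Klhdc2 at 18 h changed sign, from 0.05 to -0.13 with median scaling, -0.12 with no filter and -0.97 with no array weights, and ran from -1.5 to 0.17 with 1 array left out. Of 600 other values of single genes that were not called, 63 changed sign and 2 were called, Thy1 above and Tmem203 (0.67 for the difference, limma adjusted p = 0.0311) with the authors' processed values. Over all probes the number called lower at 18 h was 802, but 2421 with median scaling (63.7% of calls lower, against 50.4%), 397 with no array weights, 368 with only the arrays compared, 2159 at an adjusted p under 0.05 with no condition on B, and 6 to 815 with 1 array left out. At 6 h it was 906, but 302 with no array weights, 588 with only the arrays compared, 2261 with no condition on B and 422 to 991 with 1 array left out. Called lower in WT cells at 18 h against 6 h were 1060, but 319 with no array weights, 2176 with no condition on B and 394 to 1127 with 1 array left out, and higher for the difference in change 187, but 1 with no array weights, 30 with no filter, 327 with median scaling and 0 to 273 with 1 array left out. Median scaling also turned the calls for the difference in change to 57% lower, against 31%, with a median of -0.13 over all probes, against 0, and those between 6 h and 18 h in p53-/- cells to 80%, against 69.7% (56.7% with the authors' processed values). Signal over background limits Aatk, Akr1c18 and clone 3 values, which are bounds or undetected. It also limits St8sia4, which was near background in p53-/- cells.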
